A study of Mus musculus with 13 samples.

Results

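Uncoupling protein 1 and 6 further effectors of brown fat thermogenesis were followed in interscapular brown adipose tissue (iBAT), the main brown fat depot of the mouse. The 7 genes, Ucp1, Ucp2, Ucp3, Dio2, Cidea, Cox7a1 and Cox8b, were taken by symbol from the 42416 Ensembl gene identifiers that were counted, and not by their values. Earlier results of these data were known when the genes and the lists below were chosen. All 7 passed the filter on low counts, which kept 13360 genes. Transcripts of whole tissue were sequenced from 13 libraries, 8 labelled iFAXLKO and 5 WT. Both groups carried Axl flanked by loxP sites. Both were kept at room temperature on a high-fat diet (HFD), with tamoxifen repeated at intervals of 3 weeks. The iFAXLKO mice also carried Adipoq-CreERT2, a tamoxifen-inducible Cre that is driven in adipocytes from an artificial chromosome around Adipoq, and the WT mice were Cre negative. Per the methods, tamoxifen and HFD began in mice aged 6 to 8 weeks, and females were used for this model. The age at dissection is not given in the labels. The comparison asks whether loss of the receptor kinase AXL from adipocytes goes with another level of the heat-producing genes.

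Brown adipocytes make heat by letting protons return to the mitochondrial matrix without making ATP. UCP1 is the carrier that does this in brown fat, and its relatives UCP2 and UCP3 sit in the same inner membrane in many tissues and in muscle and brown fat, respectively. DIO2 is the deiodinase that turns thyroxine into active thyroid hormone inside the cell, CIDEA is a protein of the lipid droplet surface that is abundant in brown adipocytes, and COX7A1 and COX8B are the heart and muscle forms of cytochrome c oxidase subunits VIIa and VIII, which brown fat also makes. Sympathetic nerves raise Ucp1 and Dio2 through noradrenaline and cyclic AMP.

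Libraries held 22.44 to 32.6 M counts, and each member was counted at least 624 times in every library. The transcript of Axl itself showed no loss where the labels give iFAXLKO. It stood at 33.1 ± 6.16 CPM (counts per M counts of the library, SD, n = 8) there and at 27.8 ± 3.82 CPM (SD, n = 5) in WT, which differ by 0.25 on the log2 scale (SE 0.13, edgeR adjusted p = 0.699). With a score of macrophage markers as a covariate, this difference was 0.02 on the log2 scale. The Cre acts in adipocytes, whereas these counts come from all cells of the tissue, and the paper describes AXL as broadly expressed. The paper checked AXL by western blot in the mature fraction of inguinal white fat, which is not measured here. Whole-tissue Axl therefore cannot show whether adipocytes lost it, and all directions below rest on the labels alone. The 11 brown adipocyte identity markers summed to between 1089 and 1524 CPM in every library and none was at 0, so the labelled tissue carried its defining transcripts. The 23 skeletal muscle markers summed to between 59.35 and 6487 CPM, with the lowest sums in iFAXLKO replicate 8 and WT replicate 5. WT replicate 2 stood apart on the second principal component, at -43.68 where the other 12 libraries lay between -10.05 and 24.52. Since this is whole tissue, fewer cells of a type and less RNA per cell cannot be told apart.

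Ucp1 (ENSMUSG00000031710) lies on chromosome 8 from 83290352 to 83298452 on the plus strand (GRCm38, GENCODE M21, positions from 1). Ucp3 (ENSMUSG00000032942), from 100472990 to 100486432, and Ucp2 (ENSMUSG00000033685), from 100493337 to 100502020, are neighbours on the plus strand of chromosome 7. Cox7a1 (ENSMUSG00000074218, 30184144 to 30186078, plus strand) and Cox8b (ENSMUSG00000025488, 140898945 to 140900446, minus strand) are on the same chromosome. Dio2 (ENSMUSG00000007682) is on chromosome 12 from 90724552 to 90738438 on the minus strand. These are all protein-coding genes. Exons of Ucp2 share 305 bases with Dnajb13 and those of Dio2 share 100 bases with the non-coding gene Gm26512, both on the opposite strand. The strand setting of the counting is not given in the sources used here, so shared reads cannot be assigned. The partners held 394 and 470 counts over all 13 libraries, against means per library of 1566 for Ucp2 and 1752 for Dio2.

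Promoter sequences matched 6 of the 7 members in RefSeq (GRCm38.p6), and the 250 bases before the RefSeq start are shown for 4 of them, 5′ to 3′ on the gene's strand. Ucp1 and Dio2 are shown as the members known for induction by cyclic AMP, and Cox7a1 and Cox8b as the pair whose levels varied together most closely across the libraries. Capitals mark matches on either strand to the cyclic AMP response element TGACGTCA, its short form TGACG, the TATA box TATANA, the nuclear receptor motif AGGTCA and the E-box CAGCTG. The windows are chr8:83290098-83290347 (plus strand) for Ucp1, chr12:90739039-90739288 (minus strand) for Dio2, chr7:30183921-30184170 (plus strand) for Cox7a1 and chr7:140900447-140900696 (minus strand) for Cox8b. RefSeq and GENCODE starts differ for several of these genes, most for Dio2, where the window lies wholly upstream of the GENCODE gene.
Ucp1: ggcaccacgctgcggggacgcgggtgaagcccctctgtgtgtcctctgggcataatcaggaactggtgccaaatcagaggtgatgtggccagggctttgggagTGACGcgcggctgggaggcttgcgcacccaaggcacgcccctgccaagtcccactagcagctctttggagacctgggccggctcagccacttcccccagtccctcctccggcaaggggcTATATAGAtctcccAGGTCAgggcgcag
Dio2: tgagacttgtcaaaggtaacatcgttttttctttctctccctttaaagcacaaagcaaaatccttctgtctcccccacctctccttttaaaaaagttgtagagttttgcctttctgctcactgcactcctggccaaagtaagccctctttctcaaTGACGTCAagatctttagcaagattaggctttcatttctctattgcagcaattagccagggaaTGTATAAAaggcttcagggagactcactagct
Cox7a1: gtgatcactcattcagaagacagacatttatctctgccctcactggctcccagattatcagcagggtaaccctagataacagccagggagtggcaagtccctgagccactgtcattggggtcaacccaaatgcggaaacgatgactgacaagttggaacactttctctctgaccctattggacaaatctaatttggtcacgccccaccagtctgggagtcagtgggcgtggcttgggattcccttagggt
Cox8b: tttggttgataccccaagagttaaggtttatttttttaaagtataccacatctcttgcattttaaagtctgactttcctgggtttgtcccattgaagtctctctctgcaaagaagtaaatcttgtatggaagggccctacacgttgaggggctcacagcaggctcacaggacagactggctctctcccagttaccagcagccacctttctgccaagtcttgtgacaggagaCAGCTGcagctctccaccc

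The full TGACGTCA was in the Dio2 window, from 95 to 88 bases before the start, and in 1.55% of 32851 RefSeq promoter windows of the same length. It was in none of the other 5 member windows. The short form TGACG, which the full element contains, was in Ucp1, Ucp2 and Dio2 and in 17.8% of all windows. TATANA stood between 28 and 21 bases before the start of Ucp1 and between 32 and 25 bases before that of Dio2, and in 22.6% of all windows. AGGTCA was in Ucp1 and Ucp3 (14% of all windows) and CAGCTG in Ucp2, Ucp3 and Cox8b (13%). In Ucp3 an AGGTCA and the CAGCTG overlap. The Cox7a1 window held none of the 5 motifs. These matches describe letters in a short window.

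Per kb of exon, Cox8b and Ucp1 were the most abundant members and stood 11th and 12th of 13344 genes, at means of 3728 and 3603 CPM per kb over the 13 libraries. Cox8b was the higher of the pair in 7 of 13 libraries, so their order does not exceed the spread. Cidea followed at 1547 CPM per kb, below Ucp1 in 13 of 13 libraries without overlap of the ranges. Cox7a1 stood at 1272 CPM per kb, below Cidea in every library although the ranges of the pair overlap. Ucp3, at 48.36 CPM per kb, lay a median of 24.9 times below Cox7a1, and Dio2, at 11.03 CPM per kb, a median of 4.29 times below Ucp3, in every library in both cases. Ucp2 was lowest at 8.272 CPM per kb, under Dio2 in 11 of 13 libraries. With the length of the longest coding transcript in place of all merged exons, Ucp2 came to 14.5 CPM per kb and passed Dio2, so the order of these 2 genes depends on the length used. Ucp1 alone took 0.423% to 0.754% of the counts of a library, and the 7 members together 0.785% to 1.24%.

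No member was called different between the libraries labelled iFAXLKO and WT. In the edgeR quasi-likelihood test 0 of 7 members passed an adjusted p under 0.05, where 17 of 13360 genes (0.127%) did, and 0 of 7 passed an unadjusted p under 0.05, where 986 genes (7.38%) did. DESeq2 and limma-voom likewise called 0 of 7 members, adjusted or unadjusted. The CPM ranges of the 8 and 5 libraries overlapped for all 7 members and did not overlap for 0.434% of all genes. The log2 fold changes, libraries labelled iFAXLKO minus WT, were negative for 6 members and positive for Ucp2, with a median of -0.15, against -0.01 over all genes tested, of which 7158 were negative and 6202 positive. Without WT replicate 2, the member median was 0.05. The dot plot of CPM by library shows every value behind this comparison.

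**Figure D1:**
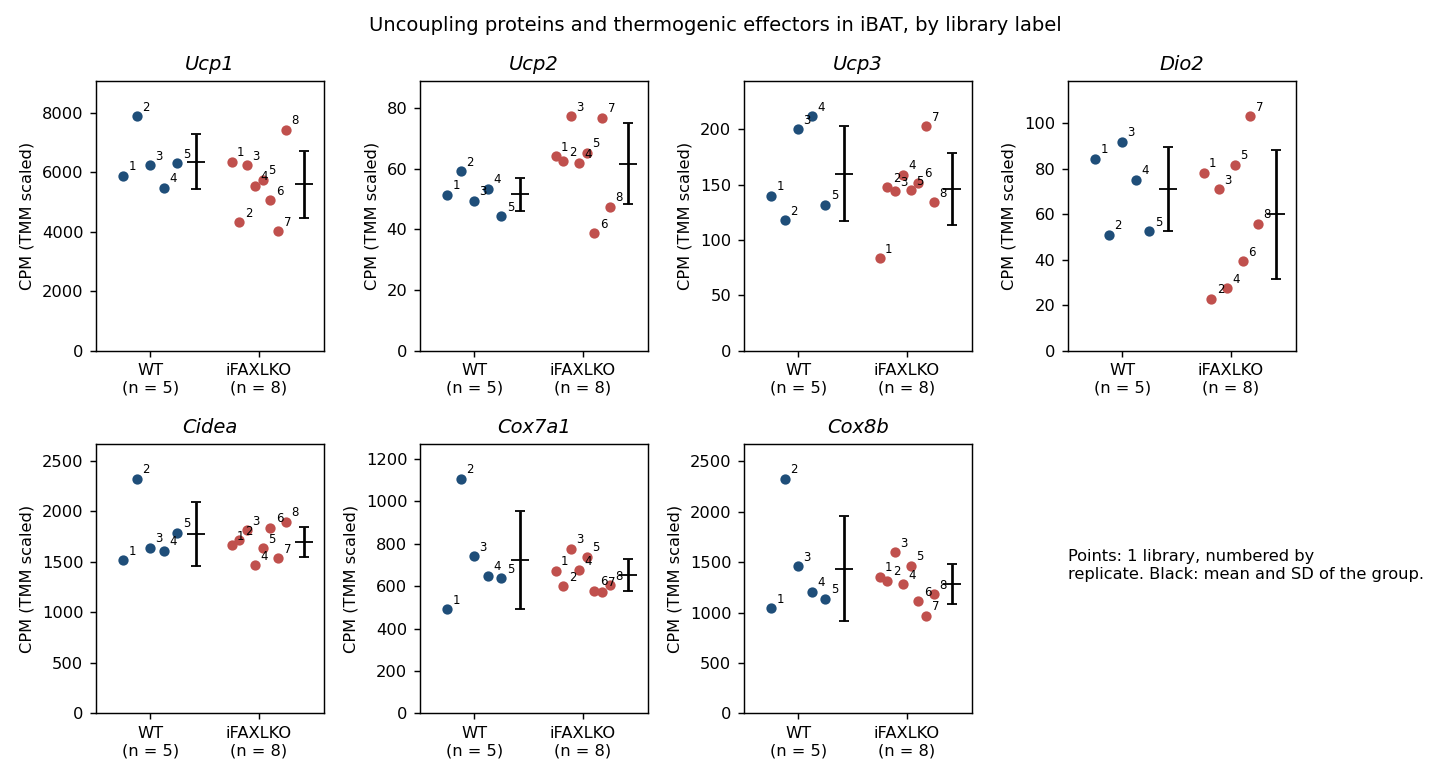
CPM of each member in every library, 1 panel per gene on a linear axis from 0, with points numbered by replicate and the group mean ± SD as bars (WT n = 5, iFAXLKO n = 8). The groups overlap in every panel, and WT replicate 2 is the highest of all 13 libraries for Ucp1, Cidea, Cox7a1 and Cox8b.

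Ucp1 was present at 5892, 7894, 6239, 5492 and 6318 CPM in WT replicates 1 to 5, and at 4030 to 7446 CPM with a median of 5656 in the libraries labelled iFAXLKO. Of the 8, 3 lay below all WT libraries, namely replicates 7, 2 and 6, and only replicate 8 lay above the WT mean. The means were 5599 ± 1120 CPM (SD, n = 8) and 6367 ± 914 CPM (SD, n = 5). This is a log2 fold change of -0.19 (SE 0.14), a fold of 0.879 with a 95% interval of 0.716 to 1.08, and an edgeR adjusted p of 0.835. The exact permutation test over all 1287 assignments of the labels, 2-sided, gave p = 0.206, where 0.000777 is the smallest it can give. A fall of Ucp1 to below 0.716 of the WT level, or a rise above 1.08, therefore lies outside the interval. Without WT replicate 2, the log2 fold change was -0.1.

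Ucp2 was the only member with a higher mean in the libraries labelled iFAXLKO. It was at 51.4, 59.1, 49.5, 53.4 and 44.4 CPM in WT replicates 1 to 5, and at 38.7 to 77.3 CPM with a median of 63.2 in the other group. Of the 8, 6 lay above every WT library, while replicate 6 lay below all of them and replicate 8 within their range. The means of 61.7 ± 13.2 (SD, n = 8) and 51.5 ± 5.36 CPM (SD, n = 5) correspond to a log2 fold change of 0.26 (SE 0.14), a fold of 1.2 with an interval of 0.97 to 1.48. The edgeR adjusted p was 0.724 and the unadjusted one 0.0881, and the exact permutation test gave p = 0.177. Leaving out either iFAXLKO replicate 6 or replicate 8, the libraries of the group with the least Ucp2, took the unadjusted p to 0.00979 and 0.0458. The adjusted p were 0.498 and 0.625 in edgeR. Without WT replicate 5, iFAXLKO replicate 3 or iFAXLKO replicate 7, the unadjusted edgeR p rose to 0.192, 0.161 and 0.16.

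Ucp3 spread over a similar range in both groups. Its WT values were 140, 118, 200, 212 and 132 CPM, and the libraries labelled iFAXLKO ran from 83.4 to 203 CPM with a median of 146.7. Of these 8, 7 lay within the WT range, and replicate 1 lay below it. The means were 146 ± 32.8 (SD, n = 8) and 160 ± 42.7 CPM (SD, n = 5), with a log2 fold change of -0.13 (SE 0.18), an interval of 0.699 to 1.19 as a fold and an edgeR adjusted p of 0.929. Without WT replicate 3 or WT replicate 4, the WT libraries with the most Ucp3, the log2 fold change was -0.03 and -0.01. Of the more distant carriers related to the uncoupling proteins, Slc25a14 stood at 2.27 ± 0.402 against 2.15 ± 0.374 CPM, Slc25a27 at 5.13 ± 1.16 against 4.71 ± 0.987 CPM and Slc25a30 at 14.8 ± 2.7 against 14 ± 2.13 CPM (SD, n = 8 and 5).

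Dio2 varied most among the members, with a highest library 4.51 times the lowest. WT libraries were at 84.4, 51.0, 91.8, 75.2 and 52.6 CPM, and those labelled iFAXLKO at 22.9 to 103 CPM with a median of 63.3. Replicates 2, 4 and 6 lay below every WT library and replicate 7 above every one of them, so the spread of the group reached past WT on both sides. The coefficient of variation was 47.5% in the libraries labelled iFAXLKO and 26% in WT, and the difference in spread was not tested. The means were 59.9 ± 28.4 (SD, n = 8) and 71.0 ± 18.5 CPM (SD, n = 5) and the log2 fold change -0.25 (SE 0.34). The edgeR adjusted p was 0.932. The exact permutation test, on a difference of mean log2 CPM of -0.37, gave p = 0.347. The interval of 0.505 to 1.41 as a fold was the widest of the 7 members. The log2 fold change ran from -0.4 without iFAXLKO replicate 7 to -0.12 without iFAXLKO replicate 2 or WT replicate 3. The other deiodinases were at or near the floor of 3 counts (0.092 to 0.134 CPM), with Dio1 at 0 in every WT library and Dio3 at 0.113 CPM at most.

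Cidea (ENSMUSG00000024526, chromosome 18, 67343604 to 67367785, plus strand, GRCm38), also protein-coding, had the narrowest spread, with a highest library 1.58 times the lowest. WT libraries were at 1513, 2319, 1638, 1610 and 1788 CPM, and the libraries labelled iFAXLKO at 1468 to 1897 CPM with a median of 1688. All but replicate 4 of the latter lay within the WT range. The means were 1695 ± 150 (SD, n = 8) and 1773 ± 320 CPM (SD, n = 5), and the fitted log2 difference was -0.07 (SE 0.11), with an interval of 0.818 to 1.12 as a fold and an edgeR adjusted p of 0.946. Without WT replicate 2 it turned to 0.05. Cidec, the CIDE family member of large lipid droplets, stood at 967 ± 124 (SD, n = 8) and 1088 ± 96.8 CPM (SD, n = 5), and its log2 difference of -0.17 (SE 0.1) did not pass (edgeR adjusted p = 0.74). Cideb, known mainly from liver, was at 3.15 ± 1.28 and 2.94 ± 0.555 CPM.

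Cox7a1 was at 491, 1106, 742, 650 and 639 CPM in WT and at 574 to 776 CPM with a median of 638.4 in the libraries labelled iFAXLKO. All 8 lay inside the WT range, whose ends were WT replicates 1 and 2. The means were 653 ± 75.8 (SD, n = 8) and 725 ± 231 CPM (SD, n = 5), with a log2 fold change of -0.15 (SE 0.15), an interval of 0.719 to 1.13 as a fold and an edgeR adjusted p of 0.886. Cox8b was at 1045, 2324, 1457, 1206 and 1137 CPM in WT and at 967 to 1598 CPM with a median of 1300 in the other group. Its means were 1285 ± 199 (SD, n = 8) and 1434 ± 520 CPM (SD, n = 5), with a log2 fold change of -0.16 (SE 0.17), an interval of 0.693 to 1.16 as a fold and an edgeR adjusted p of 0.904. WT replicate 2 held the highest level of both genes, and without it the log2 fold changes were 0.05 for Cox7a1 and 0.08 for Cox8b, again short of the threshold.

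**Figure D2:**
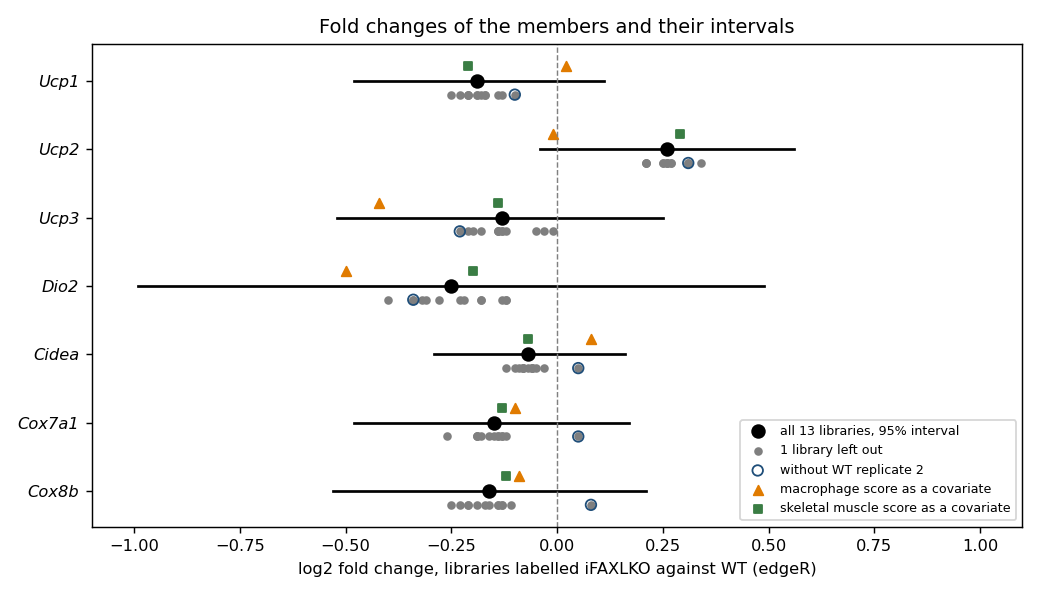
Log2 fold change of each member, libraries labelled iFAXLKO minus WT, with the 95% interval from the edgeR fit, beside grey points for each library left out in turn, an open circle without WT replicate 2, and the fits with a macrophage (triangle) or skeletal muscle score (square) as covariate. Every interval includes 0, and the circles for Cidea, Cox7a1 and Cox8b lie on the positive side.

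The heart and muscle forms were then set against the forms made in all tissues, as count ratios within each library that need no scaling. Counts of Cox7a1 exceeded those of Cox7a2 in all 13 libraries, by 1.31 to 1.64 times. Those of Cox8b exceeded Cox8a in all of them, by 1.19 to 1.68 times. These ratios are not corrected for transcript length, so they compare libraries and do not give ratios of transcript numbers. The Cox7a1 to Cox7a2 ratio was 1.32, 1.62, 1.58, 1.55 and 1.64 in WT and 1.31 to 1.55 with a median of 1.44 in the libraries labelled iFAXLKO. The mean log2 ratios were 0.54 ± 0.079 (SD, n = 8) and 0.62 ± 0.13 (SD, n = 5), and the difference of -0.09 did not pass (exact permutation p = 0.159, adjusted p = 0.239 over 3 ratios). WT replicate 1 was far below the other 4 WT libraries, and without it the difference was -0.14 with an exact permutation p of 0.00808 and an adjusted p of 0.0242. Leaving out any other single library left this ratio short of the threshold. It was -0.01 within the lower library numbers and -0.14 within the upper ones.

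The Cox8b to Cox8a ratio was 1.34, 1.68, 1.6, 1.45 and 1.45 in WT and 1.19 to 1.54 with a median of 1.37 in the libraries labelled iFAXLKO, 4 of which lay below all of WT. The difference of the mean log2 ratios was -0.13, with an exact permutation p of 0.112 (adjusted p = 0.239), and it was -0.13 in both ranges of library numbers. Cox6a2, the heart and muscle form of subunit VIa, behaved unlike these. It was at 0.0398 to 37.6 CPM, a 945-fold range, and its ratio to Cox6a1 never passed 0.0278. That ratio differed by -0.45 on the log2 scale between the groups (exact permutation p = 0.779), with -2.34 within the lower and 0.78 within the upper library numbers, of opposite sign.

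**Figure D3:**
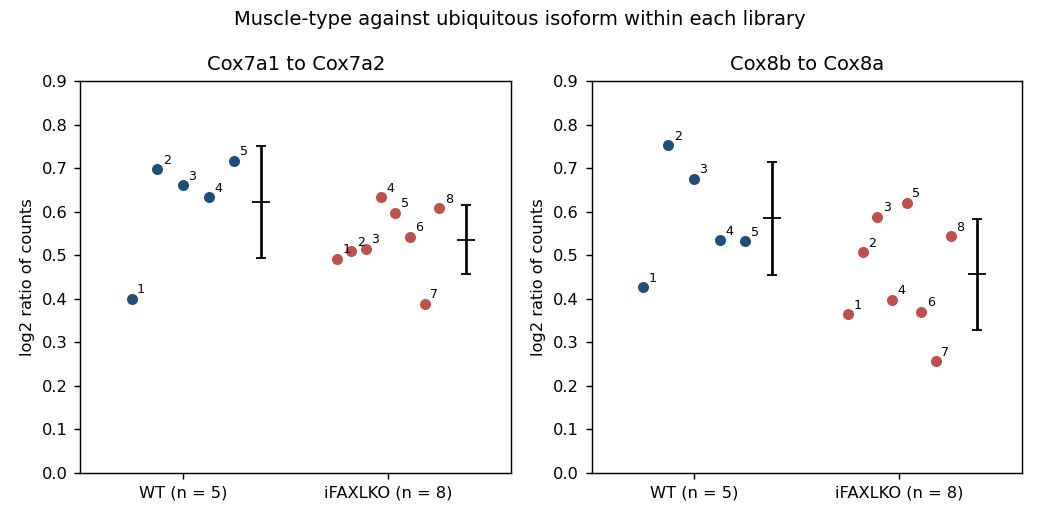
Log2 count ratio of the heart and muscle form to the general form for cytochrome c oxidase subunits VIIa (left) and VIII (right) in each library, numbered by replicate, with group mean ± SD as bars (WT n = 5, iFAXLKO n = 8). Both ratios lie above 0 in every library and the groups overlap, with WT replicate 1 at the bottom of WT in both panels.

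Skeletal muscle lies next to this depot and also makes Ucp3, Cox7a1 and Cox8b, so the members were read beside its markers. The 23 markers summed to 4566, 3524, 1738, 1564 and 72.18 CPM in WT replicates 1 to 5 and to 59.35 to 6487 CPM in the libraries labelled iFAXLKO. Of the 23, 0 passed the test, and their median log2 fold change was -0.27. Its sign turned between settings, with -0.95 without iFAXLKO replicate 5, 0.04 without WT replicate 1, and -1.34 and 1.03 within the lower and upper library numbers. In iFAXLKO replicate 8, the muscle-poorest library, 3 markers were at 0. Ucp3 was still at 134 CPM there and at 132 CPM in WT replicate 5, Cox7a1 at 604 and 639 CPM, and Cox8b at 1182 and 1137 CPM. Across all libraries Ucp3 spanned 2.54-fold, Cox7a1 2.25-fold and Cox8b 2.4-fold, whereas Cox6a2 was lowest in these same 2 libraries, at 1 and 2 counts. With group means subtracted, no member had a Pearson r with the muscle score (mean log2 CPM of the markers) beyond 0.34 in size over 13 libraries. Within library numbers Ucp3 had r = -0.72 in the lower range and 0.57 in the upper, of opposite sign. With both libraries left out, the log2 fold changes of Ucp3, Cox7a1 and Cox8b were -0.18, -0.18 and -0.22.

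**Figure D4:**
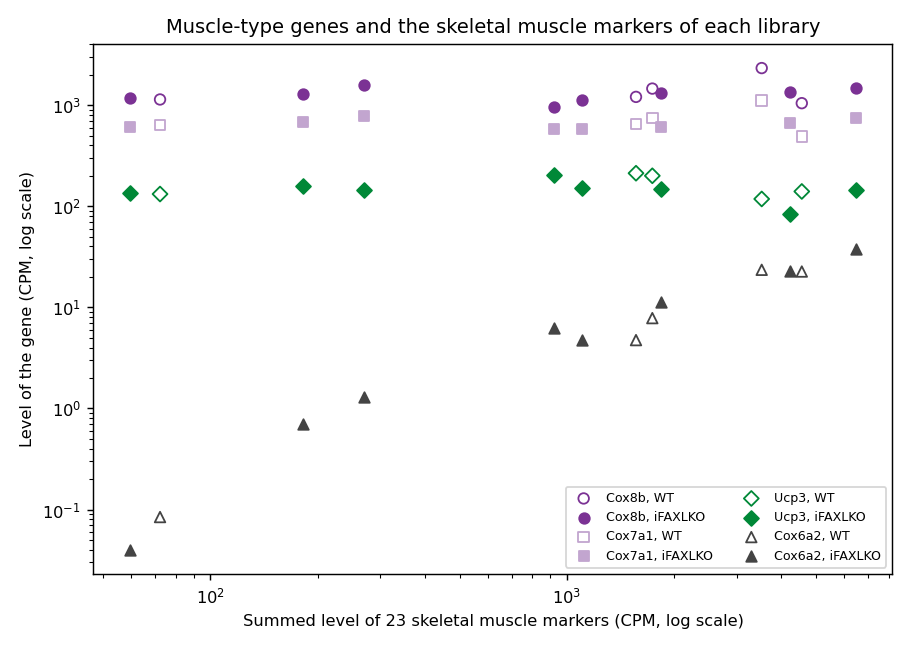
CPM of Ucp3, Cox7a1, Cox8b and Cox6a2 in each library against the summed CPM of 23 skeletal muscle markers, both axes logarithmic, with open symbols for WT (n = 5) and filled ones for iFAXLKO (n = 8). Cox6a2 climbs with the muscle sum over its 945-fold range, and the 3 members stay within 2.54-fold.

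Macrophage markers were read beside the members in the same way. Of 19 macrophage markers tested, 18 had positive log2 fold changes, 9 at an unadjusted p under 0.05 and 0 after adjustment, with a median of 0.35. The 20 markers, Aif1 included, summed to 171.2 to 239.7 CPM in WT and 206.1 to 382.9 CPM in the libraries labelled iFAXLKO, and none was at 0. Csf1r, the receptor for the macrophage growth factor CSF1, was at 22.3 ± 3.73 (SD, n = 8) and 17.3 ± 2.47 CPM (SD, n = 5), with an edgeR adjusted p of 0.507. iFAXLKO replicate 7 had the largest macrophage sum and the least Ucp1, and iFAXLKO replicate 6 the smallest sum of its group and the least Ucp2. With the macrophage score as a covariate, the log2 fold change was 0.02 for Ucp1, -0.01 for Ucp2 and 0.08 for Cidea, each of the opposite sign to the fit without it. It was -0.42 for Ucp3, at an unadjusted p of 0.0336 and an adjusted p of 0.999 in edgeR. The part of macrophage transcripts in these values was not tested.

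**Figure D5:**
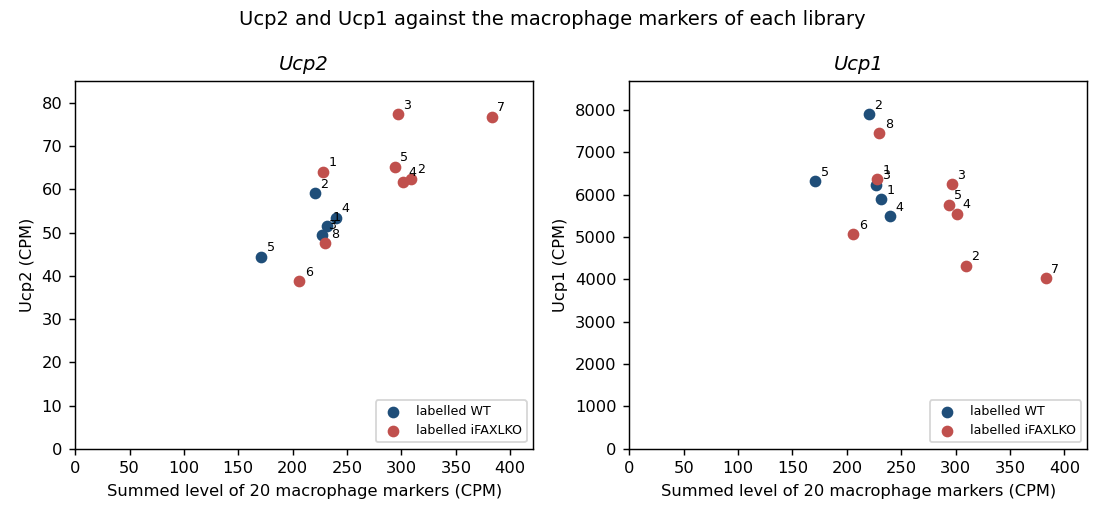
CPM of Ucp2 (left) and Ucp1 (right) in each library against the summed CPM of 20 macrophage markers, on linear axes from 0, with WT (n = 5) and iFAXLKO (n = 8) in separate colours and replicates numbered. iFAXLKO replicate 7, farthest right at 382.9 CPM of markers, has the lowest Ucp1 (4030 CPM), and neither relation passed 0.05 after adjustment.

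In all, 20 relations were computed over the 13 libraries with group means subtracted, each of the 7 members against the muscle and macrophage scores and Ucp1 against the other 6. None passed 0.05 after Benjamini-Hochberg adjustment, where the lowest adjusted p was 0.116 for Pearson's r and 0.0845 for Spearman's rho, both by permutation. Each r with a score was taken again without the 2 libraries farthest from the median score after group means were subtracted. For the macrophage score these were WT replicate 5 and iFAXLKO replicate 6. iFAXLKO replicate 7, with the largest macrophage sum and the least Ucp1, stayed in. Ucp2 and the macrophage score gave r = 0.69 (permutation p = 0.00658) and rho = 0.51 (permutation p = 0.0767), with r = 0.5 without those 2 libraries. Within library numbers r was -0.15 in the lower range and 0.93 in the upper, so the relation did not hold in both. Ucp1 and the same score gave r = -0.58 (permutation p = 0.0373) and rho = -0.42 (permutation p = 0.151), with -0.83 without 2 libraries and -0.66 and -0.61 within the ranges. Cidea gave r = -0.6 (permutation p = 0.0277) and rho = -0.74 (permutation p = 0.00572), with -0.61 without 2 libraries and -0.5 and -0.91 within the ranges. Ucp3 gave r = 0.63 (permutation p = 0.0193) and rho = 0.41 (permutation p = 0.165), with 0.76 without 2 libraries and 0.93 and 0.8 within the ranges.

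Ucp3 ran opposite to Ucp1 across the libraries, with r = -0.62 (permutation p = 0.022) and rho = -0.69 (permutation p = 0.0107), which adjust to 0.116 and 0.0845. Without iFAXLKO replicates 7 and 8, farthest from the median of Ucp1 after group means were subtracted, this r was -0.6. It was -0.56 and -0.71 within the lower and upper library numbers. Cidea, Cox7a1 and Cox8b had positive r with Ucp1, of 0.58, 0.53 and 0.57 (adjusted permutation p = 0.116, 0.151 and 0.116), with rho of 0.52, 0.68 and 0.63 (adjusted permutation p = 0.256, 0.0845 and 0.117). Without the same 2 libraries these r were 0.49, 0.72 and 0.68. WT replicate 2, the highest library for Ucp1, Cidea, Cox7a1 and Cox8b, stayed in there and belongs to the lower numbers. Within the lower and upper numbers Cidea had r of 0.55 and 0.71, Cox7a1 0.72 and 0.3, and Cox8b 0.66 and 0.5. Dio2 had r = 0.05 with Ucp1, and the neighbours Ucp2 and Ucp3 had r = 0.06 with each other. These points share their libraries and scaling.

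Cox7a1 and Cox8b had the closest pattern of any pair of members, with r = 0.95 over the 13 libraries after group means were subtracted, and Cox8b stood at place 54 of 13359 genes by likeness to Cox7a1. By the same measure the genes most like Cox7a1 among 13359 were Bloc1s1 (0.98), Rdh5 (0.974) and the complex I subunit gene Ndufa5 (0.973), and those most like Cox8b were the mitochondrial ribosomal protein gene Mrps9 (0.987), Rer1 (0.979) and 1700021F05Rik (0.975). Dio2 was most like Klf15 (0.966), a transcription factor gene, followed by Tmx1 (0.93) and Inmt (0.921). Ucp1 was most like Tstd3 (0.888), Grtp1 (0.883), Gars (0.869), Dynll2 (0.867) and Pon1 (0.861). For Cidea the closest was Mrpl9 (0.942), for Ucp3 Uhrf1bp1l (0.916) and for Ucp2 Rmdn2 (0.914). No p is given for these likenesses, which were picked as the highest of many. WT replicate 2 held 1106 CPM of Cox7a1 and 2324 CPM of Cox8b, where no other library passed 776 and 1598 CPM. The r of 0.95 and the likenesses were not computed without it, so how far they rest on this library was not tested.

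Genes of the same pathways also gave 0 calls in edgeR. Of 29 other brown thermogenic genes tested of 32 listed, 0 passed after adjustment and 1 had an unadjusted p under 0.05, with a median log2 fold change of -0.04. That gene was Elovl3, a fatty acid elongase of brown fat, at 125 ± 45.3 (SD, n = 8) and 202 ± 25.1 CPM (SD, n = 5), below the WT mean in 8 of 8 libraries with an edgeR adjusted p of 0.474. Of 18 other cytochrome c oxidase subunit genes 0 had an unadjusted p under 0.05 (median -0.05), and the counts of mt-Co2 and mt-Co3 are taken as uncertain, since mt-Co2 stood at 2.23 and 2.52 CPM where mt-Co1, transcribed from the same genome, stood at 58400 and 58840 CPM. The cause of this gap was not tested. Of 18 genes of thyroid hormone activation and response, Wsb1 was higher and Hr and Ncoa1 lower at an unadjusted p only (log2 fold changes 0.3, -0.42 and -0.26). Of 13 CIDE family and droplet coat genes, Plin2, a droplet coat protein gene, had an unadjusted p under 0.05, at 655 ± 113 and 823 ± 87.9 CPM (edgeR adjusted p = 0.535). The 11 carriers gave none, with a median of -0.03. The 11 brown adipocyte identity markers had a median of 0.01 with none at an unadjusted p under 0.05.

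Markers of other cells were set beside the members. All 10 fibroblast markers had positive log2 fold changes with an unadjusted p under 0.05, with a median of 0.66 and sums of 560.7 to 1211 CPM in the libraries labelled iFAXLKO and 400.5 to 715.1 CPM in WT. None passed adjustment in edgeR, while DESeq2 called Lum and Dcn, matrix proteoglycan genes (adjusted p = 0.00174 and 0.00313). The 10 endothelial markers summed to 899.3 to 1396 and 817.6 to 1118 CPM, with a median of 0.16, or 0.43 among the lower and -0.11 among the upper library numbers. That of the fibroblast markers was 0.29 with the macrophage score as a covariate. The 7 of 10 white adipocyte markers tested had a median of 0.18, which was -0.1 without WT replicate 3, -0.05 without WT replicate 4, and -0.38 and 0.36 within the lower and upper library numbers. The 10 summed to 572.5 to 1143 CPM and 440.8 to 1269 CPM. The part of these cells in the values of the members was not tested.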

How the data were processed

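RNA of iBAT was sequenced in 8 libraries labelled iFAXLKO and 5 labelled WT. The authors deposited raw read counts for 42416 Ensembl identifiers per library, of which 42263 had a symbol and position (GENCODE M21, GRCm38). The submitters' processing notes name bcl2fastq 2.20, fastp 0.20.0, STAR 2.7.4a, DESeq2 and GRCm38.p6, whereas the methods of the study give Trim Galore and hisat2 with depletion of ribosomal RNA, and the labels give polyadenylated RNA. Which applies is not settled here, and the counting tool is not given in the sources used here. A poly-A selection and a depletion would weigh non-polyadenylated transcripts differently.

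Libraries held 22.44 to 32.6 M counts. A count of 0 allows up to 3 counts, that is 0.092 to 0.134 CPM, and this floor covers counting error only. The intervals of the edgeR fit also include the spread between libraries. Libraries of a group differed by at least 15.26 chi-square units per degree of freedom, which is beyond counting error. Each was treated as 1 replicate, although this value cannot show that they come from separate animals. The labels give each library as a separate numbered replicate of its genotype without naming the animal, so p-values measure the spread between these libraries.

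Genes over 1 CPM in at least 5 libraries were tested with edgeR 4.0.16 (R 4.3.3; TMM factors, robust quasi-likelihood F test, 2-sided) on all 13 libraries, with Benjamini-Hochberg adjustment over 13360 genes. Values are TMM-scaled CPM, with a prior count of 2 on the log2 scale. Intervals are 95% from the fitted standard error. Single values were compared by exact permutation of the difference of mean log2 CPM or mean log2 ratio. Ratios were adjusted over 3, and relations were tested over 100000 random orders. The fit was tested on simulated data. Motifs were searched in RefSeq promoter windows.

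Alternatives were DESeq2 1.42.0, limma 3.58.1 (voom with quality weights), other scalings and filters, covariates for the muscle score, the macrophage score and the library number, the replicate number as a block, and each library left out. Library numbers in the labels were cut at their first gap into a lower range, 287 to 292 (4 iFAXLKO, 2 WT), and an upper one, 297 to 313 (4 and 3). The upper range has further gaps, with the numbers 297, 301 to 304, 308 and 313. The cut is thus a choice made here, and the labels do not call the ranges batches. Fits within each range and without the muscle-poorest library of each group were chosen after seeing the data.

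The members and lists were chosen with earlier results of these data known. Named genes are Axl, the 7 members, their family partners, up to 3 genes with the smallest p of each list, and the 5 genes most like Ucp1 and up to 3 most like each other member.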

Additional observations from a re-analysis of the deposited data

Results flagged for a closer look

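Extreme libraries were looked for in 24 groups of values with Dixon's test, which by chance flags about 1 in 20 groups, and 2 values stood out. In WT replicate 1 the ratio of Cox7a1 to Cox7a2 counts was 1.32, while the other 4 WT libraries lay between 1.55 and 1.64. In WT replicate 5 the skeletal muscle score, the mean log2 CPM of the 23 markers, was -0.244, far below the other 4 WT libraries. No member's own CPM stood out by this test, although WT replicate 2 was the highest library for Ucp1, Cidea, Cox7a1 and Cox8b.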

How the results depend on the processing

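No member passed the threshold under any of the 26 alternatives, and no scaling moved the median of all genes by over 0.1 on the log2 scale. The count of genes called, 17, was 67 with DESeq2, 4 and 10 within the lower and upper library numbers, 11 without the 2 muscle-poor libraries and 14 to 19 without single libraries. Fewer libraries enter the 3 reduced fits, and the cause of the other shift was not tested. Signs turned under voom with quality weights for Cidea (0.03), Cox7a1 (0.02) and Cox8b (0.06), with the macrophage covariate for Ucp1 (0.02), Ucp2 (-0.01) and Cidea (0.08), within the lower numbers for Ucp3 (0.05), within the upper ones for Cidea (0.04), and without WT replicate 2 for Cidea (0.05), Cox7a1 (0.05) and Cox8b (0.08). These are log2 fold changes, none past the threshold, and the causes were not tested.

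Without single libraries the log2 fold changes ran from -0.25 to -0.1 for Ucp1, 0.21 to 0.34 for Ucp2, -0.23 to -0.01 for Ucp3, -0.4 to -0.12 for Dio2, -0.12 to 0.05 for Cidea, -0.26 to 0.05 for Cox7a1 and -0.25 to 0.08 for Cox8b. Without a change of sign, Dio2 moved to -0.54 with voom, -0.5 with the macrophage covariate, -0.49 with the replicate block, and -0.44 and -0.06 within the lower and upper numbers, and Ucp3 to -0.35 with voom and -0.42 with the macrophage covariate. Differences of the log2 ratios ran from -0.14 to -0.06 for Cox7a1 to Cox7a2, from -0.17 to -0.09 for Cox8b to Cox8a and from -1.63 to 0.22 for Cox6a2 to Cox6a1, the last with 0.15 without WT replicate 1 and 0.22 without iFAXLKO replicate 8. Beyond the members, Lum reached the threshold with DESeq2 (0.73) and without WT replicate 4 (0.85), and Dcn with DESeq2 (0.41).

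The labels do not say whether the 5 shared replicate numbers pair the libraries. Deviations of same-numbered libraries from their group means correlated at 0.392, 0.422, 0.188, 0.181 and -0.614. Only for replicate 2 was this the best match from both sides. These mixed values do not decide the question, so the main fit used no pairing. With the replicate block 7 genes were called and 0 members, Ucp2 was at 0.36 (unadjusted p = 0.0058, edgeR adjusted p = 0.284), Cox8b turned to 0.03 and the Cox6a2 to Cox6a1 ratio to 0.27. Each member was counted at least 624 times per library, and the effect of depth on the calls was not tested. For Dio2 the interval spans 0.505 to 1.41 as a fold.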

Other observations

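Of the 7 white adipocyte markers tested, 5 had positive and 2 negative log2 fold changes, and Retn and Slc7a10 had an unadjusted p under 0.05. Hoxc8 went the other way, at -0.24 (edgeR unadjusted p = 0.0798). Retn, which encodes the adipokine resistin, was at 40.6 ± 11.5 CPM (SD, n = 8) in the libraries labelled iFAXLKO and 22.3 ± 11 CPM (SD, n = 5) in WT, above the WT mean in 8 of 8 libraries, with a log2 fold change of 0.87 (SE 0.27) and an edgeR adjusted p of 0.49. Slc7a10, an amino acid transporter gene, was at 17.6 ± 2.63 and 13.9 ± 3.43 CPM, above the WT mean in 7 of 8 libraries (edgeR adjusted p = 0.643). Slc25a10, the mitochondrial dicarboxylate carrier, was at 17.0 ± 5.36 and 11.2 ± 4.84 CPM, above the WT mean in 7 of 8 libraries (edgeR adjusted p = 0.68). The log2 fold change of Slc25a10 was 0.6 over all libraries, 0.04 within the lower library numbers and 1.1 within the upper ones. That of Retn was 0.43 within the lower numbers and 1.25 within the upper ones.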
